A study of Homo sapiens with 9 samples.

Results

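The 10 enzymes described here make purine nucleotides or recover them from free bases and nucleosides: APRT, ADK, HPRT1, PRPS1, PPAT, GART, PAICS, ADSL, ATIC and IMPDH2. They were chosen by name, as genes of purine synthesis and adenine salvage, and every probe set annotated to 1 of them that had values was followed. The array carries 27 such probe sets, of which 19 had values, and each of the 10 genes, of 9453 genes with values in all, had at least 1. GART has 9 probe sets on the array, 4 of them with values. RNA came from HT1080, an established human fibrosarcoma cell line, on 9 Affymetrix expression arrays. There were 3 arrays of cells without methylthioadenosine phosphorylase and without treatment (MTAP-), and 3 of cells with the enzyme and without treatment (MTAP+). The other 3 came from MTAP+ cells kept for 48 hours with 10 µM of the inhibitor MT-DADMe-ImmA (MTAP+ inhibitor). The labels used here do not say how the MTAP+ cells were derived or whether they are 1 clone. The design text calls the arrays of a group biological replicates, and p-values measure the spread between these arrays. In RNA from whole cultures, a change in the share of cells in some state and a change in RNA per cell cannot be told apart.

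MTAP splits methylthioadenosine, a by-product of polyamine synthesis, into adenine and a sugar phosphate that is recycled to methionine. APRT joins the freed adenine to phosphoribosyl pyrophosphate (PRPP) and so returns it to AMP, which makes MTAP and APRT consecutive steps of adenine salvage. Without MTAP this source of adenine is lost, and cells rely on building the purine ring anew on PRPP or on salvage of other purines. The compound MT-DADMe-ImmA binds MTAP tightly as a mimic of the reaction's transition state.

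The starts of genes that are compared below are shown first, from RefSeq on GRCh38.p14, in lower case with every match to the E box CACGTG in capitals. RefSeq windows from 250 bases before to 50 bases after a start were found for 8 of the 10 genes, 13 windows in all. PPAT and PAICS are shown because their opposed starts lie 137 bases apart, so that both windows share 236 bases at chr4:56435566-56435801. This is 1 of 3 RefSeq start windows for PAICS. GART (chr21:33542843-33543142, minus strand), PRPS1 (chrX:107628260-107628559, plus strand) and ADK (chr10:74150971-74151270, plus strand) are shown because their mRNA differed between groups.
Shared start region of PPAT and PAICS, plus strand: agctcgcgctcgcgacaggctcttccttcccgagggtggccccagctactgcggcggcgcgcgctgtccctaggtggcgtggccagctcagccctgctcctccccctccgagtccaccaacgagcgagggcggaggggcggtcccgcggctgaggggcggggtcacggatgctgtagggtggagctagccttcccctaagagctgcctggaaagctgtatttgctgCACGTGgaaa
GART start region, minus strand: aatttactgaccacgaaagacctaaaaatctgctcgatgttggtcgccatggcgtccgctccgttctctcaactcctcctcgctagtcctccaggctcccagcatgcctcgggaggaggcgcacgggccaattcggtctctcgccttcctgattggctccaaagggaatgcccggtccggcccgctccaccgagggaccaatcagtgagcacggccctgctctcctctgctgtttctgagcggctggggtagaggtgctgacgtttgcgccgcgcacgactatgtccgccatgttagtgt
PRPS1 start region, plus strand: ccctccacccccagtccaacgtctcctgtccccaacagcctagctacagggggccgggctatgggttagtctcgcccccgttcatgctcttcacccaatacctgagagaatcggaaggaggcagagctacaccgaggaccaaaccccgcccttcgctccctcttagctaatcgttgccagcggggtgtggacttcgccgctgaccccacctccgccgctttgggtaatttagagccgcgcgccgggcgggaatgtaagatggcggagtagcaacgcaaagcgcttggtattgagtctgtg
ADK start region, plus strand: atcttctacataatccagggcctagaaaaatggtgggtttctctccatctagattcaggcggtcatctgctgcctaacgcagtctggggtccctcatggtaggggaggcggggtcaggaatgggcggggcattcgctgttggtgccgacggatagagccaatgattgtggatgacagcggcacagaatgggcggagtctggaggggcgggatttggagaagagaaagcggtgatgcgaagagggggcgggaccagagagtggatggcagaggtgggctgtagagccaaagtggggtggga
The E box CACGTG reads the same on both strands. It was in 3 of the 13 windows, those of PPAT, PAICS and ATIC, and in 7.26% of 35116 RefSeq windows of this length. The matches of PPAT and PAICS are the same site in the shared region. It begins 40 bases after the PAICS start and 177 bases before the PPAT start. ATIC held the E box 2 times. Some windows overlap, as those of PPAT and PAICS do, so the 13 windows are not independent. The GC box GGGCGG, searched on both strands, was in 10 of the 13 windows, against 45% of all windows. The GART window printed above and that at chr21:33542840-33543139 held 0, and the GART window at chr21:33542068-33542367 held 3. The amino acid response element TGATGNAAT, searched on both strands, was in 0 of the 13 and in 0.991% of all windows. None of the 3 motifs contains another, and a match describes the sequence only.

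MTAP mRNA followed the labels, at 4.25 to 5.02 (log2) on the MTAP- arrays, 11.37 to 11.74 on the MTAP+ arrays and 11.10 to 11.30 with inhibitor. Values below 6.64, which every deposited probe set reached on at least 3 arrays, were not shown to be above background. Of 6 mesenchymal markers 5 had values, with VIM at a mean of 13.98, while 0 of 6 epithelial and 0 of 5 endothelial markers had values. Of 6 blood cell markers only LYZ had values, with group means from 4.89 to 7.35. The median value of an array ran from 8.24 to 8.38. The ACTB control probe sets, which report RNA integrity, read lower at the 5′ than at the 3′ end, by -1.81, -2.17 and -3.52 on the MTAP- arrays, -1.33, -1.03 and -1.92 on the MTAP+ arrays and -1.93, -0.88 and -2.09 with inhibitor. The array of MTAP- replicate 3 stands apart, and calls of the 10 enzymes that end without it, or with this difference as a covariate, are given with their values.

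Few of the 10 purine enzymes differed between groups, and by the probe set that stands for each gene the differences that passed reached at most 1.56-fold. ADK was lower in MTAP+ than in MTAP- cells. PRPS1 and ADSL fell with inhibitor, and against MTAP- cells the inhibitor group had lower PRPS1 and ADSL and higher GART. In MTAP+ against MTAP- cells 1 of the 10 passed the test (limma on all 9 arrays, Benjamini-Hochberg adjusted p below 0.05 over all 7011 genes tested), where 19.1% of all genes passed. Of all genes 820 were higher and 516 lower there, which turned to 602 and 784 with arrays centred on their medians and to 638 and 675 with renewed quantile normalisation. With inhibitor against MTAP+ cells 2 passed, both lower, where 14.9% of all genes passed and 8.50% were lower. The background count of 1042 genes became 1589 with the replicate number as a block, and the members that passed became 3. Inhibitor-treated against MTAP- cells gave 3, 1 higher and 2 lower, where 37.3% of all genes passed, 19.3% higher and 18.0% lower. This comparison shares its arrays with the other two. All 10 genes passed the filter on low values. The members' median absolute log2 change was 0.19, 0.18 and 0.11 in the 3 comparisons in this order, beside 0.21, 0.19 and 0.28 over all genes. A count of 1 to 3 among 10 is near or below what all genes gave.

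**Figure D1:**
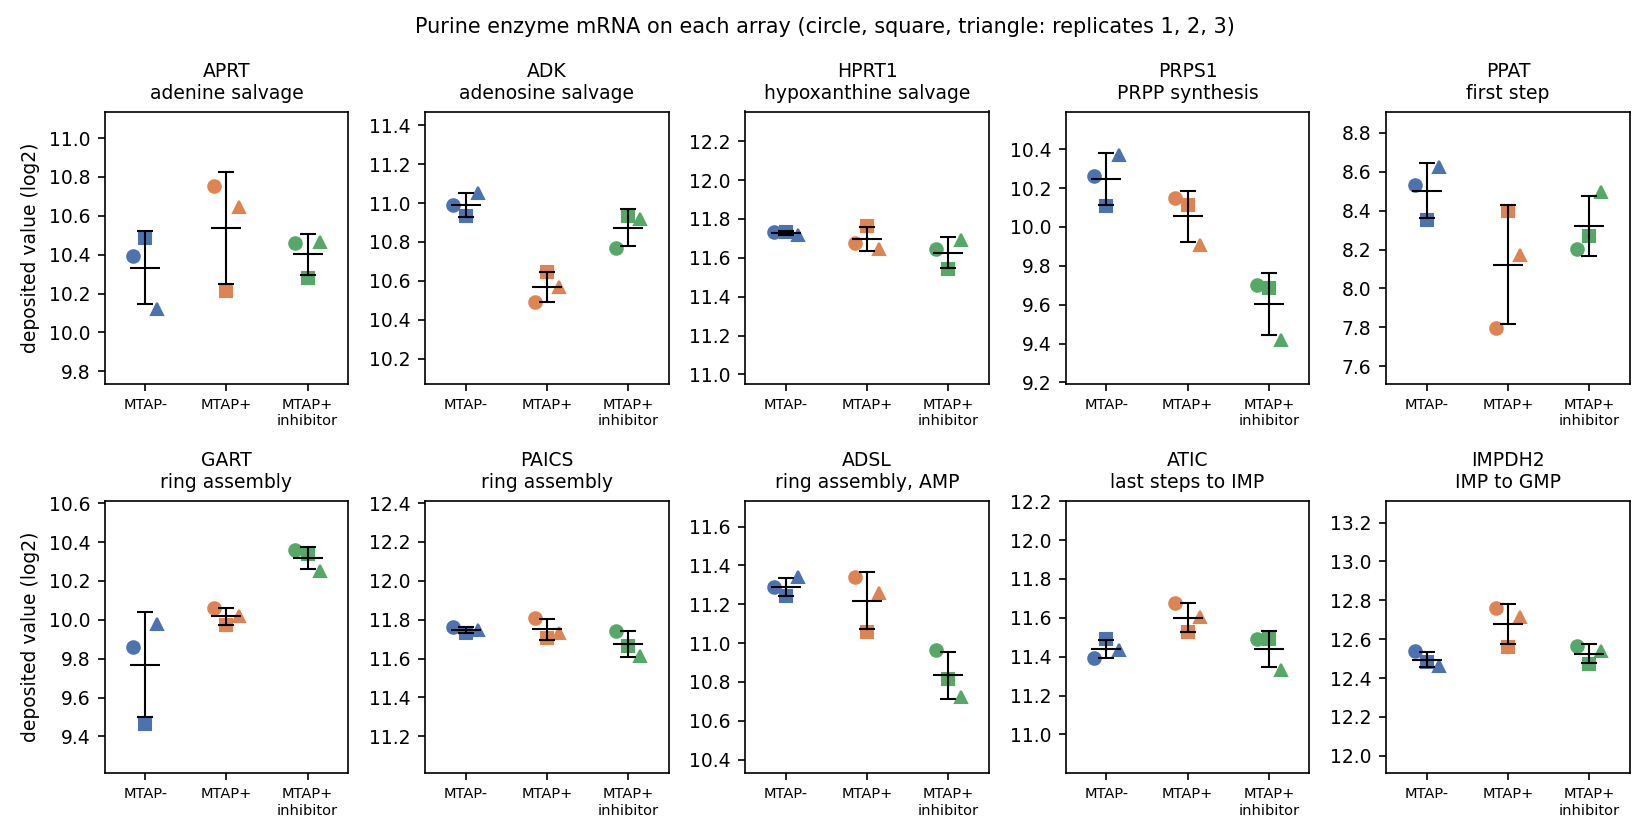
Each panel plots the deposited log2 value of 1 purine enzyme (its probe set of highest mean) on the 9 arrays, with the group mean and SD as black bars. Every panel spans the same log2 range, so that spreads can be compared. The ADK points of MTAP+ cells (10.49 to 10.64) lie below those of both other groups, and the PRPS1, ADSL and GART points of inhibitor-treated cells lie apart from both untreated groups.

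The salvage enzymes come first. APRT, which uses the adenine that MTAP releases, read 10.39, 10.48 and 10.12 on the MTAP- arrays, 10.75, 10.21 and 10.64 on the MTAP+ arrays and 10.46, 10.28 and 10.47 with inhibitor (log2). The 3 groups overlapped. The difference was 0.20 ± 0.15 (log2 ± SE; 95% interval -0.13 to 0.54) between MTAP+ and MTAP- cells, with limma adjusted p = 0.376. With inhibitor against MTAP+ cells it was -0.13 ± 0.15 (95% interval -0.47 to 0.20; adjusted p = 0.600). The other APRT probe set, 203219_s_at, gave 0.39 ± 0.19 and -0.00 ± 0.19 in the same comparisons, and neither passed (adjusted p = 0.192 and 0.999). With the replicate number as a block, this probe set passed between MTAP+ and MTAP- cells (adjusted p = 0.0400). By the brighter probe set a change of APRT mRNA with MTAP or its inhibitor was not detectable with 3 arrays a group, and its intervals hold changes of up to 0.54.

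ADK phosphorylates adenosine to AMP, the other way in which adenine-containing compounds return to the nucleotide pool. It read 10.99, 10.93 and 11.05 on the MTAP- arrays and 10.49, 10.64 and 10.57 on the MTAP+ arrays. With inhibitor it read 10.77, 10.94 and 10.92. Every MTAP+ array lay below every array of the other groups, while MTAP- and inhibitor-treated arrays overlapped. ADK was 1.34-fold lower in MTAP+ than in MTAP- cells (log2 -0.42 ± 0.09, limma adjusted p = 0.0130). The difference was -0.39 without MTAP- replicate 3 and -0.42 with the ACTB difference as a covariate, and the call was lost in both (adjusted p = 0.0502 and 0.0842), with a range from 0.00318 to 0.0842 over the alternatives. With inhibitor ADK differed from MTAP+ cells by 0.31 ± 0.09 (log2; 95% interval 0.10 to 0.52), which missed the threshold (adjusted p = 0.0533). With the replicate number as a block, which treats same-numbered arrays as pairs, it passed (adjusted p = 0.0374). It also passed with renewed quantile normalisation (0.0426), the 60th percentile filter (0.0462), array weights (0.00992) and eBayes with trend and robust (0.0416), and not in the other 14 of 19 alternatives, in a range from 0.00992 to 0.186. Inhibitor-treated and MTAP- cells differed by -0.12 ± 0.09 (95% interval -0.32 to 0.09; adjusted p = 0.360). The dimmer ADK probe set, 204120_s_at, gave group means of 8.16 ± 0.42, 7.82 ± 0.04 and 8.08 ± 0.38 (SD, n = 3) in MTAP-, MTAP+ and inhibitor-treated cells. Its means followed the same order, but its groups overlapped and no comparison of it passed (adjusted p = 0.333, 0.517 and 0.804).

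HPRT1 returns hypoxanthine and guanine to IMP and GMP. It varied least with PAICS, from 11.54 to 11.77 over all 9 arrays. Its differences were -0.03 ± 0.09 with MTAP, -0.07 ± 0.09 with inhibitor and -0.10 ± 0.09 between inhibitor-treated and MTAP- cells (log2 ± SE; limma adjusted p = 0.836, 0.639 and 0.393). The 95% intervals of these differences lay within -0.30 and 0.16.

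PRPS1 makes PRPP, the activated ribose that both synthesis and salvage use. It read 10.26, 10.11 and 10.37 on the MTAP- arrays, 10.15, 10.11 and 9.91 on the MTAP+ arrays and 9.70, 9.69 and 9.42 with inhibitor. The untreated groups overlapped, and every inhibitor array lay below every untreated array. PRPS1 fell by 0.45 on the log2 scale with inhibitor (-0.45 ± 0.12, 1.37-fold lower, limma adjusted p = 0.0306). This call was lost when its probe sets were averaged (adjusted p = 0.0504), without MTAP+ replicate 1 (0.0875) or 2 (0.0642), or without inhibitor replicate 1 (0.0537), 2 (0.0586) or 3 (0.136), with a range from 0.0190 to 0.136. Between inhibitor-treated and MTAP- cells it was 1.56-fold lower (-0.65 ± 0.12, adjusted p = 0.00222), and this passed in all 20 alternatives. MTAP+ and MTAP- cells differed by -0.19 ± 0.12 (adjusted p = 0.283). The other probe set, 208447_s_at, gave -0.27 ± 0.13 with inhibitor and -0.31 ± 0.13 against MTAP- cells, and neither passed (adjusted p = 0.195 and 0.0895).

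The synthesis of IMP starts with PPAT, the amidotransferase that commits PRPP to the purine ring. PPAT read 8.53, 8.35 and 8.63 on the MTAP- arrays, 7.79, 8.40 and 8.17 on the MTAP+ arrays and 8.20, 8.27 and 8.50 with inhibitor. The MTAP+ array of replicate 2 lay among the MTAP- arrays. The difference with MTAP was -0.38 ± 0.16 (log2 ± SE) and did not pass (limma adjusted p = 0.112). Its other probe set, 209433_s_at, gave -0.57 ± 0.19, with every MTAP+ array below every MTAP- array, and missed the threshold too (adjusted p = 0.0712). With the mean of the probe sets, the difference was -0.48 ± 0.14 and passed (adjusted p = 0.0382). It passed as well with array weights (0.0393) and without MTAP+ replicate 2 (0.0329), in a range from 0.0329 to 0.389. With inhibitor the 2 probe sets gave 0.20 ± 0.16 and 0.02 ± 0.19, and neither passed (adjusted p = 0.416 and 0.963). Between inhibitor-treated and MTAP- cells they gave -0.18 ± 0.16 and -0.55 ± 0.19, and neither passed (adjusted p = 0.389 and 0.0528). There 209433_s_at passed in 4 of 15 alternatives, among them centred arrays (0.0298) and renewed quantile normalisation (0.0250).

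PAICS, which catalyses later steps of ring assembly and shares the start region printed above with PPAT, read 11.73 to 11.76 on the MTAP- arrays, 11.71 to 11.81 on the MTAP+ arrays and 11.61 to 11.74 with inhibitor. Its difference with MTAP was 0.00 ± 0.09 (95% interval -0.19 to 0.20; limma adjusted p = 0.982), with the sign depending on the scaling. With inhibitor it was -0.07 ± 0.09 (adjusted p = 0.605). The interval of PAICS (-0.19 to 0.20) and that of PPAT (-0.73 to -0.04) overlap, and the difference between the 2 genes was not tested.

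GART carries 3 activities of the early ring assembly in a single protein. Its brightest probe set, 212378_at, read 9.86, 9.47 and 9.98 on the MTAP- arrays, 10.06, 9.97 and 10.02 on the MTAP+ arrays and 10.36, 10.34 and 10.25 with inhibitor. Every inhibitor array lay above every untreated array. GART was 1.46-fold higher in inhibitor-treated than in MTAP- cells (0.55 ± 0.13, limma adjusted p = 0.00770), and this passed in all 20 alternatives. Against MTAP+ cells the difference of this probe set was 0.30 ± 0.13 and did not pass (adjusted p = 0.147), and between MTAP+ and MTAP- cells it was 0.25 ± 0.13 (adjusted p = 0.198).

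Of the 3 other GART probe sets, 2 gave larger differences with inhibitor than the brightest and 1 a smaller one. Probe set 210005_at read 7.74, 7.76 and 7.41 on the MTAP- arrays, 7.87, 7.81 and 7.75 on the MTAP+ arrays and 8.52, 8.18 and 8.48 with inhibitor. All inhibitor arrays lay above all others, by 0.58 ± 0.13 against MTAP+ cells (adjusted p = 0.0249 over all probe sets) and by 0.75 ± 0.13 against MTAP- cells (0.00267). Probe set 230097_at was noisier, at 7.94, 7.90 and 8.21, then 7.19, 8.06 and 7.93, then 8.55, 9.35 and 8.47 in the same order of groups. It rose by 1.06 ± 0.27 with inhibitor (adjusted p = 0.0371). Probe set 212379_at gave 0.12 ± 0.15 with inhibitor (adjusted p = 0.659) but 0.56 ± 0.15 against MTAP- cells (0.0175), a call lost without MTAP- replicate 2 (0.0518) or 3 (0.0516) or inhibitor replicate 2 (0.0658) and with the ACTB covariate (0.0875). So 2 of 4 GART probe sets passed with inhibitor against MTAP+ cells and 3 of 4 against MTAP- cells, where 10.3% and 31.0% of all probe sets passed. With MTAP 0 of 4 passed, where 15.5% of all probe sets did; at an unadjusted p below 0.05 it was 1 of 4 (212379_at, 0.44 ± 0.15, adjusted p = 0.0693), and with the replicate block it passed (0.0334). The mean of the 4 probe sets rose by 0.52 ± 0.10 with inhibitor (adjusted p = 0.00958). For GART as a gene this is 1 of 20 alternatives to its brightest probe set, of which 17 did not pass. The 2 calls of single probe sets were lost in 5 of 15 alternatives for 210005_at (highest adjusted p = 0.108) and in 7 of 15 for 230097_at (0.101).

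ADSL removes fumarate at a late step of ring assembly and again on the way from IMP to AMP. It read 11.29, 11.24 and 11.34 on the MTAP- arrays, 11.34, 11.06 and 11.26 on the MTAP+ arrays and 10.96, 10.82 and 10.72 with inhibitor. The untreated groups overlapped, and all inhibitor arrays lay below both. ADSL fell with inhibitor by 0.38 on the log2 scale (-0.38 ± 0.11, 1.30-fold lower, limma adjusted p = 0.0373). The call was lost with arrays centred on their medians (adjusted p = 0.0516), only the 2 groups fitted (0.0683) or the ACTB covariate (0.0524). It was also lost without MTAP- replicate 1 (0.0566) or 3 (0.0503), MTAP+ replicate 1 (0.112) or 3 (0.0878), or inhibitor replicate 2 (0.105) or 3 (0.159), in a range from 0.00345 to 0.159. Against MTAP- cells it was 1.37-fold lower (-0.46 ± 0.11, adjusted p = 0.00762), which passed in all 19 alternatives. The other ADSL probe set, 210250_x_at, also had every inhibitor array below every untreated array, at -0.33 ± 0.11 with inhibitor, and did not pass (adjusted p = 0.0967). Between MTAP+ and MTAP- cells ADSL differed by -0.07 ± 0.11 (adjusted p = 0.668).

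ATIC closes the ring and yields IMP. It read 11.39, 11.49 and 11.44 on the MTAP- arrays, 11.68, 11.52 and 11.60 on the MTAP+ arrays and 11.49, 11.49 and 11.33 with inhibitor. The MTAP+ arrays lay above both other groups without overlap. The differences were 0.16 ± 0.09 with MTAP and -0.16 ± 0.09 with inhibitor, and neither passed (limma adjusted p = 0.246 and 0.267). IMPDH2 takes IMP toward GMP and read 12.54, 12.48 and 12.46, then 12.76, 12.56 and 12.71, then 12.57, 12.47 and 12.54 in the same order of groups. Its differences were 0.18 ± 0.09 with MTAP (adjusted p = 0.184) and -0.15 ± 0.09 with inhibitor (adjusted p = 0.292). Groups without overlap were common here: 35.2% of all genes had none between MTAP+ and MTAP- cells, 36.4% had none with inhibitor and 54.6% had none between inhibitor-treated and MTAP- cells. Of the 10 purine enzymes 3, 5 and 4 had none.

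**Figure D2:**
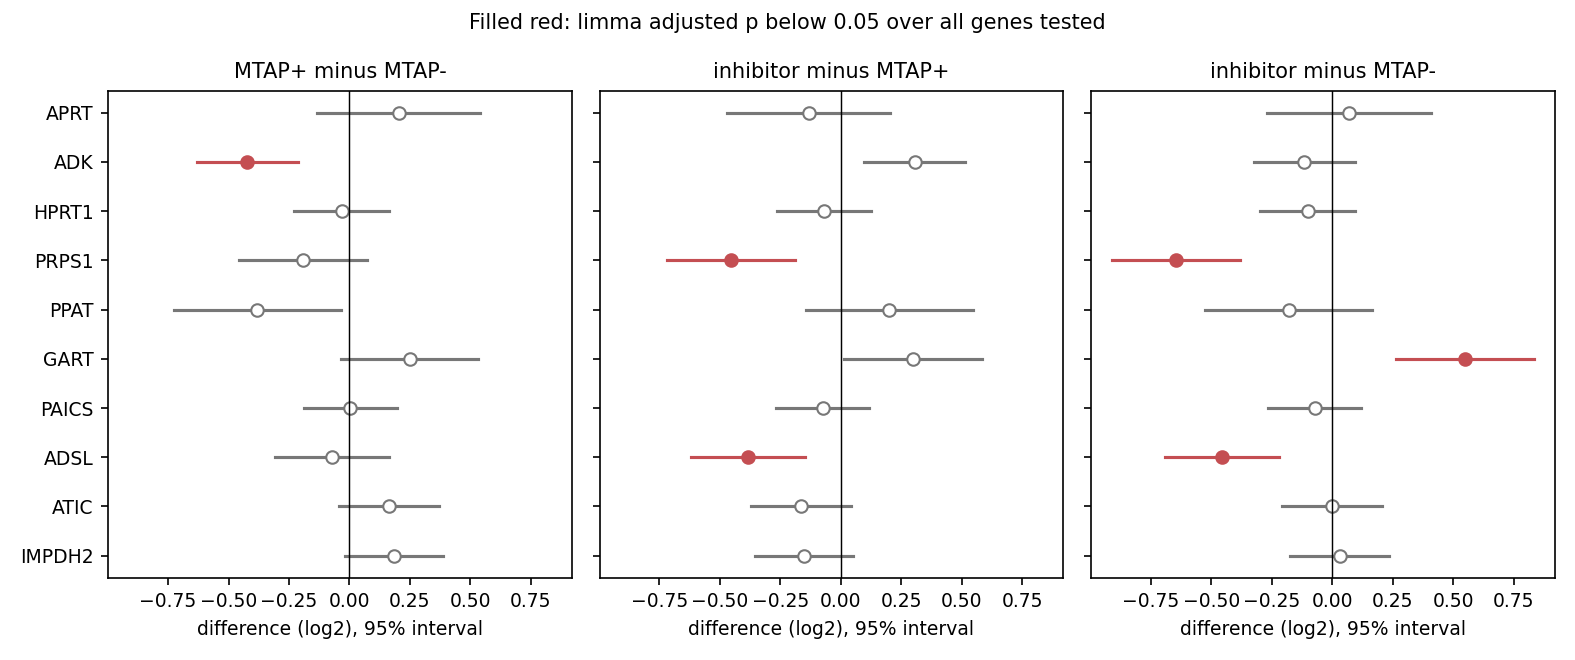
The 3 panels plot the log2 difference of each purine enzyme with its 95% interval from the limma fit, for MTAP+ minus MTAP-, inhibitor minus MTAP+ and inhibitor minus MTAP- cells; filled red points passed at an adjusted p below 0.05. ADK passed in the left panel (-0.42), PRPS1 and ADSL in the middle panel (-0.45 and -0.38), and PRPS1, ADSL and GART (0.55) in the right one.

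**Figure D3:**
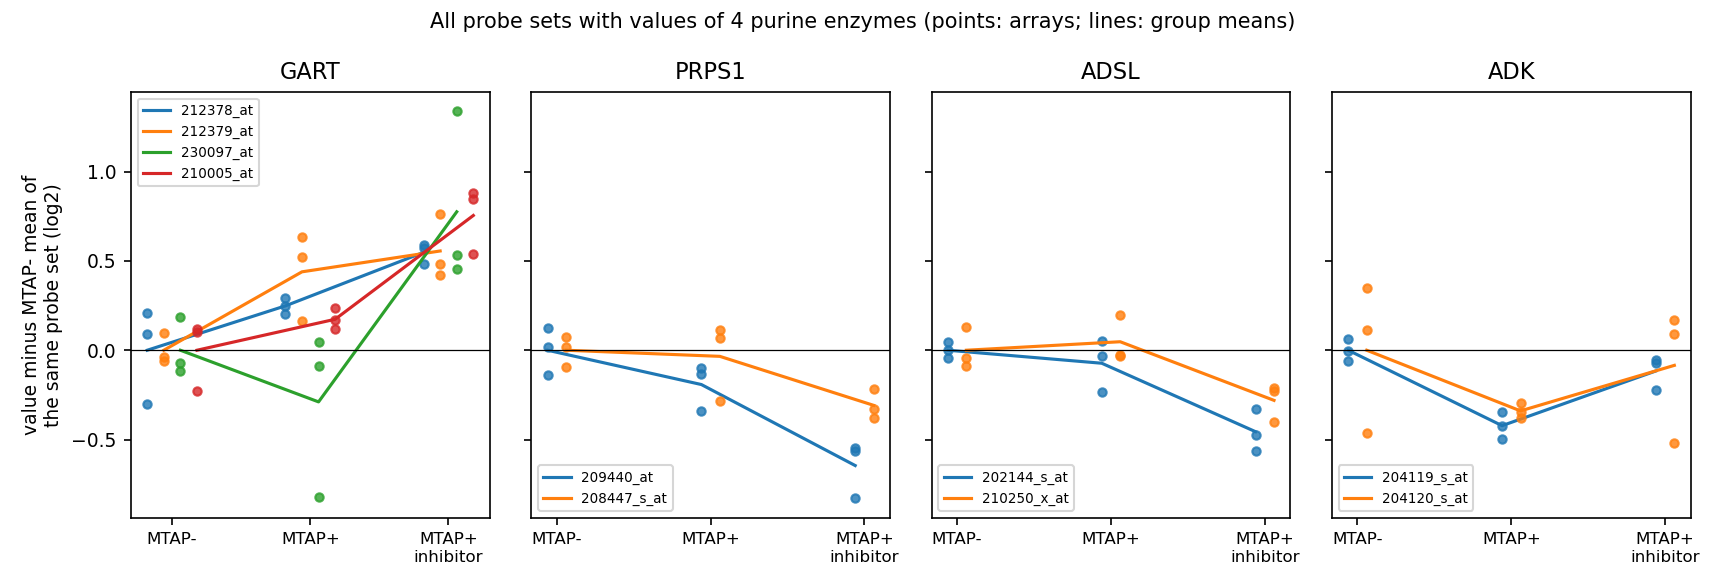
Each panel plots every probe set with values of GART, PRPS1, ADSL or ADK, as the log2 value on each array (points) and group means (lines) minus the MTAP- mean of the same probe set. The 4 GART probe sets end between 0.55 and 0.78 above the MTAP- mean in inhibitor-treated cells, and both probe sets of PRPS1 and of ADSL end below it.

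Genes with the most similar profiles were searched among all tested genes, by the root mean square difference of log2 values over the 9 arrays after centring each gene on its own mean. The search covered PRPS1, GART and ADSL, whose passing changes were the largest among the members. Only the nearest genes were kept, so their distances lie below the median by construction. For PRPS1 they were TMEM185B (0.0616) and TYMS (0.0669), where the median gene was at 0.353. For GART they were EXOSC7 (0.0628) and PHC1 (0.0663), with a median of 0.337, and for ADSL MTCH2 (0.0399) and PSMD1 (0.0452), with a median of 0.293.

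Of 6 remaining enzymes of purine synthesis that were tested, 0 passed with MTAP by limma (1 at an unadjusted p below 0.05, PFAS), where 19.1% of all genes passed, which became 1 lower with arrays centred on their medians and 1 higher with array weights. With inhibitor, where 14.9% of all genes passed, 1 fell, PRPSAP2, which encodes a protein associated with PRPP synthetase (-0.42 ± 0.11, limma adjusted p = 0.0283, and 0.0121 to 0.105 over the alternatives). That count became 0 with only the 2 groups fitted, or without MTAP+ replicate 1 or inhibitor replicate 2 or 3. PFAS, which acts in ring assembly among the steps of GART, differed by -0.37 ± 0.14 with MTAP and did not pass (adjusted p = 0.0828). PRPS2, the paralogue of PRPS1, was named after its values were seen and differed by 0.22 ± 0.11 with inhibitor (adjusted p = 0.185), with all inhibitor arrays above all MTAP+ arrays. The median change of this list was -0.14 with MTAP and -0.01 with inhibitor, beside 0.01 and -0.02 over all genes.

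Among 19 tested enzymes of purine interconversion and breakdown, 4 were higher and 1 lower in MTAP+ than in MTAP- cells, where 11.7% of all genes were higher and 7.36% lower. This balance turned with the scaling, to 0 higher and 2 lower with centred arrays and 0 and 1 with renewed quantile normalisation, and the count was 0 without MTAP- replicate 2 or 3, with only the 2 groups fitted or with the ACTB covariate. It was 2 higher and 0 lower without probe sets shared between transcripts, where PNP and AK1 had no probe set left to test. It was 2 without MTAP- replicate 1 or MTAP+ replicate 3, 1 without MTAP+ replicate 1, and 2 to 3 without an inhibitor replicate. The adenylate kinases AK1 (0.46 ± 0.14) and AK4 (0.41 ± 0.13) and the AMP deaminase AMPD2 (0.40 ± 0.11) were among the higher ones. With probe sets averaged AK1 differed by 0.28 and AK4 by 0.21, with array weights by 0.28 and 0.24, and AK4 by 0.13 without shared probe sets, and neither passed in these (adjusted p from 0.0800 to 0.413). The AMPD2 call was lost in 8 of 20 alternatives (highest adjusted p = 0.133). PNP, which splits inosine and guanosine, was the lower one (-0.41 ± 0.11, limma adjusted p = 0.0306) and fell again with inhibitor (-0.40 ± 0.11, adjusted p = 0.0374), with ranges from 0.00410 to 0.105 and from 0.0149 to 0.160 over the alternatives. Between inhibitor-treated and MTAP- cells PNP differed by -0.81 ± 0.11 (adjusted p = 4.72e-04), a call kept in all 19 alternatives. The AMP deaminase AMPD3 was higher with inhibitor than in MTAP+ cells (0.44 ± 0.11), and DCK, which phosphorylates deoxynucleosides, was lower (-0.57 ± 0.12). This AMPD3 call was lost in 5 of 19 alternatives (highest adjusted p = 0.0826). AMPD3 was also the remaining gene higher with MTAP (0.37 ± 0.11, limma adjusted p = 0.0434). Between inhibitor-treated and MTAP- cells it differed by 0.80 ± 0.11 (adjusted p = 4.61e-04). With inhibitor the count was 1 higher and 2 lower, where 6.36% of all genes were higher and 8.50% lower. It fell to 1 in all without MTAP+ replicate 1 or inhibitor replicate 1 or 2, and to 0 without inhibitor replicate 3.

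Serine and folate enzymes supply carbon and glycine for the purine ring. Of 8 tested, 4 rose with inhibitor and 0 fell, where 6.36% of all genes rose: PHGDH (0.78 ± 0.16), PSAT1 (0.60 ± 0.11), SHMT2 (0.55 ± 0.09) and MTHFD2 (0.45 ± 0.10). Their limma adjusted p-values ran from 0.00574 to 0.0151. The list was chosen with earlier results of these data known, so its share beside that of all genes is no test. The MTHFD2 call was lost when its probe sets were averaged (0.30, adjusted p = 0.158) and without inhibitor replicate 1 (0.0619) or 3 (0.0614). The other 4 did not pass, among them MTHFD1, which differed by -0.18 with every inhibitor array below every MTAP+ array. The median change of the list was 0.49, and the count fell to 2 without inhibitor replicate 3. With MTAP 1 of 8 was higher and 0 lower, where 11.7% of all genes were higher and 7.36% lower. The higher gene was ALDH1L1, which consumes formyl groups (0.57 ± 0.17, limma adjusted p = 0.0418). With the replicate block 2 were higher and 1 lower, with array weights 2 and 2, with eBayes with trend and robust 1 and 1, with centred arrays or renewed quantile normalisation 0 were higher and 1 lower, and with the ACTB covariate or only the 2 groups fitted the count was 0. Also, without any 1 array other than MTAP+ replicate 2 the count was 0. Against MTAP- cells inhibitor-treated cells had 5 higher and 1 lower, where 19.3% of all genes were higher and 18.0% lower, or 3 and 0 with the ACTB covariate.

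The pyrimidine enzymes, a parallel pathway that also uses PRPP, were lower with inhibitor in 4 of 11 tested genes and higher in 0, where 8.50% of all genes were lower. They were DTYMK (-0.63 ± 0.15), UMPS (-0.47 ± 0.11), CTPS1 (-0.47 ± 0.13) and the thymidylate synthase TYMS (-0.42 ± 0.11). Their limma adjusted p-values were 0.0199, 0.0155, 0.0409 and 0.0337 in this order. The calls were lost in 3 of 20, 2 of 19, 10 of 20 and 6 of 20 alternatives (highest adjusted p = 0.0836, 0.0801, 0.172 and 0.145). The median change of the list was -0.42. This list too was chosen with earlier results of these data known. The count was 0 without MTAP+ replicate 1 or inhibitor replicate 3, 1 without inhibitor replicate 2, and 2 without inhibitor replicate 1 or with the ACTB covariate. With MTAP, DUT was higher (0.40 ± 0.12, but -0.16 without probe sets shared between transcripts) and CTPS1 lower (-0.63 ± 0.13). The count was thus 1 higher and 1 lower, where 11.7% of all genes were higher and 7.36% lower. This became 0 higher and 4 lower with centred arrays, 1 and 4 with renewed quantile normalisation and 2 and 3 with the replicate block. With the ACTB covariate it was 0 and 0. It became 0 and 1 without MTAP- replicate 2 or 3 or MTAP+ replicate 1 or 3.

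Ribonucleotide reductase turns purine and pyrimidine ribonucleotides into DNA precursors. Its subunit gene RRM2 fell with inhibitor by 1.02 on the log2 scale (-1.02 ± 0.17, limma adjusted p = 0.00507), a call kept in all 20 alternatives. RRM1 (-0.48 ± 0.10) and RRM2B (-0.69 ± 0.18) were lower in MTAP+ than in MTAP- cells, where 7.36% of all genes were lower. That count of 2 in 3 genes was 1 without MTAP- replicate 1 or 2 or MTAP+ replicate 1, with only the 2 groups fitted or with the ACTB covariate. With its probe sets averaged, RRM1 differed by -0.03 ± 0.17 (adjusted p = 0.933), so its probe sets disagree. Of 6 enzymes of ribose phosphate supply, RPIA (-0.65 ± 0.13) and PGD (-0.36 ± 0.11) were lower with MTAP, against the same 7.36%. PGD was higher with inhibitor (0.39 ± 0.11, adjusted p = 0.0411), where 6.36% of all genes were higher. The PGD call with MTAP was lost when no further filter on low values was used (limma adjusted p = 0.0503). The first count became 1 without MTAP- replicate 1 or 2, MTAP+ replicate 1 or 3 or any inhibitor replicate. It was also 1 with only the 2 groups fitted or with the ACTB covariate. The second became 0 without any 1 array other than MTAP- replicate 3 or MTAP+ replicate 2, and with only the 2 groups fitted. The nucleoside transporter SLC29A1 was lower with inhibitor (-0.59 ± 0.15, adjusted p = 0.0235), but not without MTAP+ replicate 1 or 2 or inhibitor replicate 2 or 3, nor with its probe sets averaged, in a range from 0.0125 to 0.108.

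**Figure D4:**
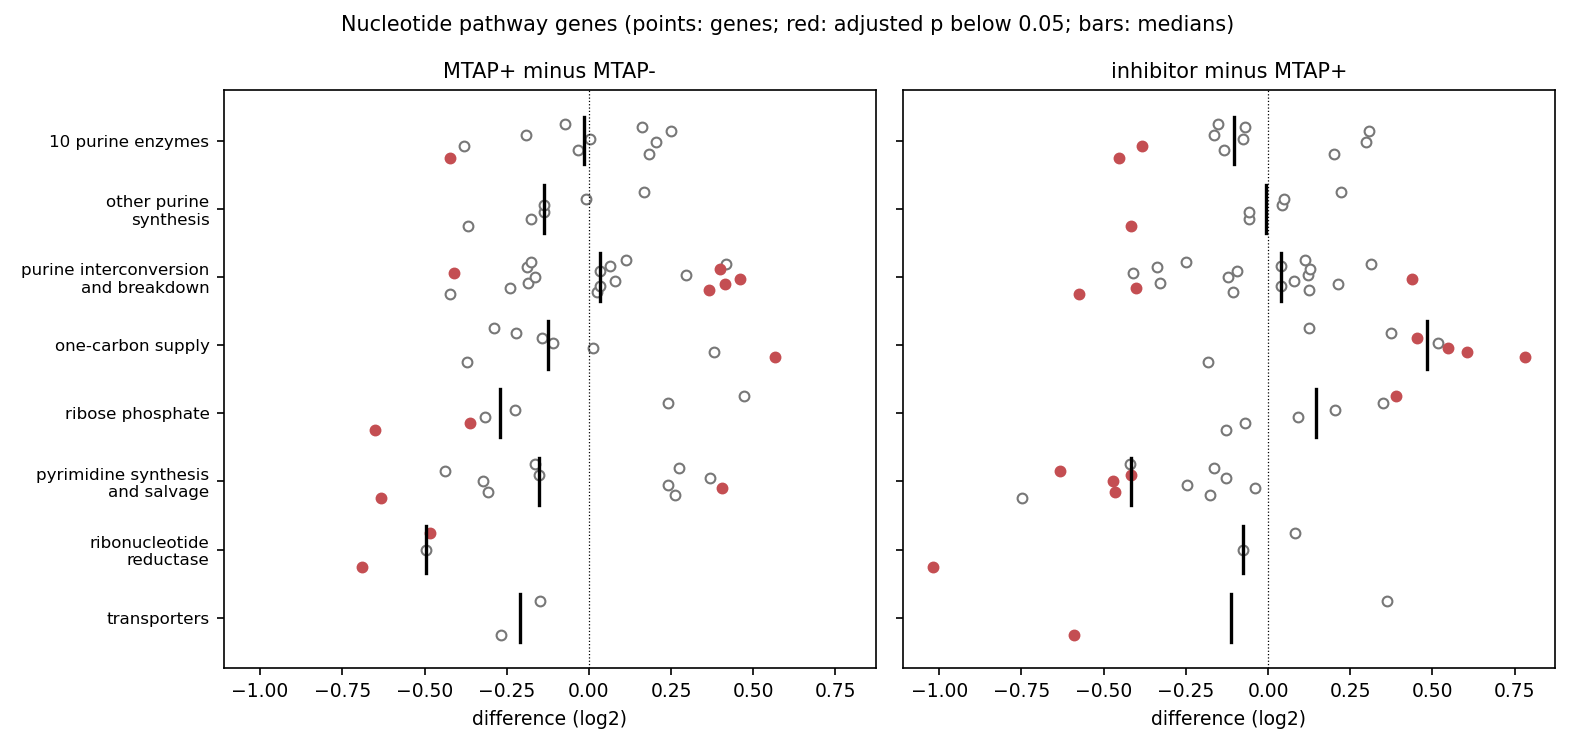
Points are genes of the nucleotide pathways, placed by their log2 difference between MTAP+ and MTAP- cells (left) and between inhibitor-treated and MTAP+ cells (right); vertical position within a row has no meaning, bars are medians, and red points passed at an adjusted p below 0.05. The median of the 10 purine enzymes lies at -0.01 and -0.10, while with inhibitor the serine and folate enzymes (labelled one-carbon supply) centre on 0.49 and the pyrimidine enzymes on -0.42.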

How the data were processed

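The deposited values were log2 expression from RMA, run by the authors (source: the submitters' processing notes, which give no version or settings). Of 54675 listed probe sets 17474 had values, each at 6.64 or more on at least 3 arrays. Probe sets were named by the platform's annotation, and 15485 non-control ones carried 1 gene symbol. Each gene was taken as its probe set of highest mean, and 7011 genes above the 40th percentile of all values (7.96) on at least 3 arrays were tested. Differences are log2 differences with the standard error of limma 3.58.1 (R 4.3.3, lmFit and eBayes, the 3 groups fitted together), adjusted by Benjamini-Hochberg over all genes. MTAP was left out of background counts. Single probe sets were tested in a like fit over all 15485. Values in groups are means ± SD, and 3 arrays a group limit the precision, with a median SE of 0.126. The fits were tested on simulated data.

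Members and gene lists were chosen with earlier results of these data known. Named are all members, MTAP and, per list and comparison, up to 4 changed genes of largest change and up to 2 others of highest mean; PRPS2 and the GART probe sets described singly were chosen after their values were seen. Deviations of same-numbered arrays correlated at 0.15 to 0.38 between MTAP+ and MTAP-, at 0.35 to 0.77 between inhibitor and MTAP+, and at 0.02 to 0.31 between inhibitor and MTAP- cells. The numbers were therefore taken to pair the arrays in the former comparisons only. The main fit left this pairing out, and its p-values and counts are unpaired, while the replicate block took the pairing in as an alternative. Alternatives covered the replicate block, scaling, probe set choice, filters, weights, eBayes settings, the ACTB covariate and leaving out each array; for the pathway lists they were added after seeing the data.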

Additional observations from a re-analysis of the deposited data

How the results depend on the processing

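Of 579 recomputed changes of the 10 enzymes, 540 kept their direction and side of the threshold, 17 lost the call, 11 gained it and 11 changed sign, all of the last among differences that did not pass. The cause of these changes was not tested unless given. Counts of members that changed with MTAP (1) became 2 with the mean of all probe sets or array weights, 0 with the ACTB covariate, and 0 to 2 leaving out 1 array. With inhibitor (2) they became 1 with centred arrays, only the 2 groups fitted or the ACTB covariate, 4 with array weights, and 0 to 3 leaving out 1 array. Without probe sets shared between transcripts the counts were 0 with MTAP and 1 with inhibitor. Fewer genes were tested there. ADK and ADSL had no probe set left in this setting, so their calls could not be made. Over all genes, 1336 with MTAP became 752 with only the 2 groups fitted, 2164 with array weights, 470 with the ACTB covariate and 745 to 1583 leaving out 1 array. With inhibitor 1042 became 1832 with array weights and 372 to 1055 leaving out 1 array, and 2613 against MTAP- cells became 1732 without shared probe sets. With the replicate block, 1042 became 1589. Member probe sets that passed with MTAP (1) became 3 with the replicate block, 2 with centred arrays or renewed quantile normalisation, 0 with the ACTB covariate and 0 to 2 leaving out 1 array. With inhibitor (3) they became 5 with array weights and 0 to 2 leaving out 1 array. Against MTAP- cells (5) they became 9 with the replicate block, and 8 with centred arrays or with array weights. The block changed the call of ADK with inhibitor and of no other of the 10 genes in the comparisons taken as paired.

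Signs changed as follows (log2). PAICS with MTAP went to -0.0733 centred, -0.0227 with quantiles, -0.0269 with mean probe sets, -0.0122 with array weights, and -0.0272 to 0.0240 leaving out 1 array. ADSL with MTAP ran from -0.134 to 0.00797 leaving out 1 array. Against MTAP- cells, inhibitor-treated IMPDH2 went to -0.0290 centred, and leaving out 1 array APRT ran from -0.0365 to 0.145 and ATIC from -0.0295 to 0.0520. Without shared probe sets DUT with MTAP went to -0.16. Between inhibitor-treated and MTAP- cells TKT was higher, at 0.59 ± 0.15 (limma adjusted p = 0.0112). Without shared probe sets it was lower, at -0.55 ± 0.12 (adjusted p = 0.00633). Both TKT values passed, so its probe sets disagree in direction. Leaving out 1 array, other probe sets ran from -0.117 to 0.00308 (PAICS 201014_s_at), -0.109 to 0.0915 (PRPS1 208447_s_at) and -0.0273 to 0.114 (ADSL 210250_x_at) with MTAP. With inhibitor they ran from -0.17 to 0.15 (APRT 203219_s_at), -0.19 to 0.17 (PPAT 209433_s_at) and -0.0220 to 0.214 (GART 212379_at), and against MTAP- cells from -0.32 to 0.13 (ADK 204120_s_at). ADSL 210250_x_at with MTAP also went to -0.0290 centred, -0.0135 with array weights and -0.0268 with the ACTB covariate. APRT 203219_s_at with inhibitor went to 0.0155 centred, 0.0252 with quantiles and 0.00512 with the ACTB covariate.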
